A study of Danio rerio with 96 samples.

Results

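The chromosome 16 amplicon is a stretch of 112 bp beginning at chr16:8404129 (1-based, build GRCz10, minus-strand cytosines) that was amplified from bisulfite-converted zebrafish DNA. Its members were the cytosines listed there in CpG context that had 30 or more reads in 48 or more of the 96 libraries. This rule gave 5 CpGs, and the last of them, at the amplicon's end, was left out as a likely primer base. CpGs are named here by their distance in bp from the first cytosine: +21, +54, +76 and +96, with +111 left out. The first 3 are at 8404150, 8404183 and 8404205. The 4 CpGs kept are 4 of the 50 measured in 8 amplicons. These 50, over which p-values were adjusted and shares passing are given, include +111. Each library was made from a dissected larval head at 5 days post-fertilisation, and each of the 4 groups held 24 libraries. Larvae were GR wild-type or GR mutant, where GR is the glucocorticoid receptor. Control larvae were kept in 0.2% ethanol, and treated larvae in betamethasone, a synthetic glucocorticoid, at 100 µM. The labels used here do not give the GR allele, the clutch or the length of the treatment. The gene around the amplicon is not named here, because no annotation of GRCz10 was used.

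In vertebrates most CpGs carry 5-methylcytosine, which DNA methyltransferases copy to the new strand after replication, while CpG-rich promoters and active enhancers often stay free of it. Bisulfite turns unmethylated cytosine into uracil, read as T, so the share of reads with C is taken as the methylation level of that base. Cytosine left unconverted is also read as C and adds to that share. GR is the nuclear receptor that binds cortisol and its synthetic analogues, enters the nucleus and regulates transcription at its binding sites. A level in a whole head mixes all its cell types. A different mix of cells and a different methylation level within a cell type cannot be told apart here.

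The 4 CpGs are 33, 22 and 20 bp apart in order of position. At +21, +76 and +96 another cytosine stands directly 5′ on the minus strand, and at +54 none does. The last CpG lies only 15 bp from the amplicon's end. Primers held 25 to 30 bp of amplicon-specific sequence per the labels, so +96 could fall within one. So could +21, which lies 21 bp from the first cytosine at the other end. Over all reads of the 90 libraries with values, the 22 non-CpG cytosines fell into 2 ranges. The 7 nearest the ends were read as C in 0.00295% to 0.0183% of reads, and the 15 between 22 and 97 bp, called inner here, in 0.285% to 2.55%. The border between them was drawn from these levels. The CpG +111 was read as C in 23 of 169198 reads, 0.0136% (exact 95% interval 0.00862% to 0.0204%), a level in the range of the ends. The non-CpG cytosine +97, next to +96, was read as C in 0.726% of reads, a level in the range of the interior. The one at +22, next to +21, was read as C in 0.326% of reads, also in that range. The CpG +96 was kept as a site near an end, and the amplicon result that passed is also given without it. The CpG +21 was kept as well.

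**Figure D1:**
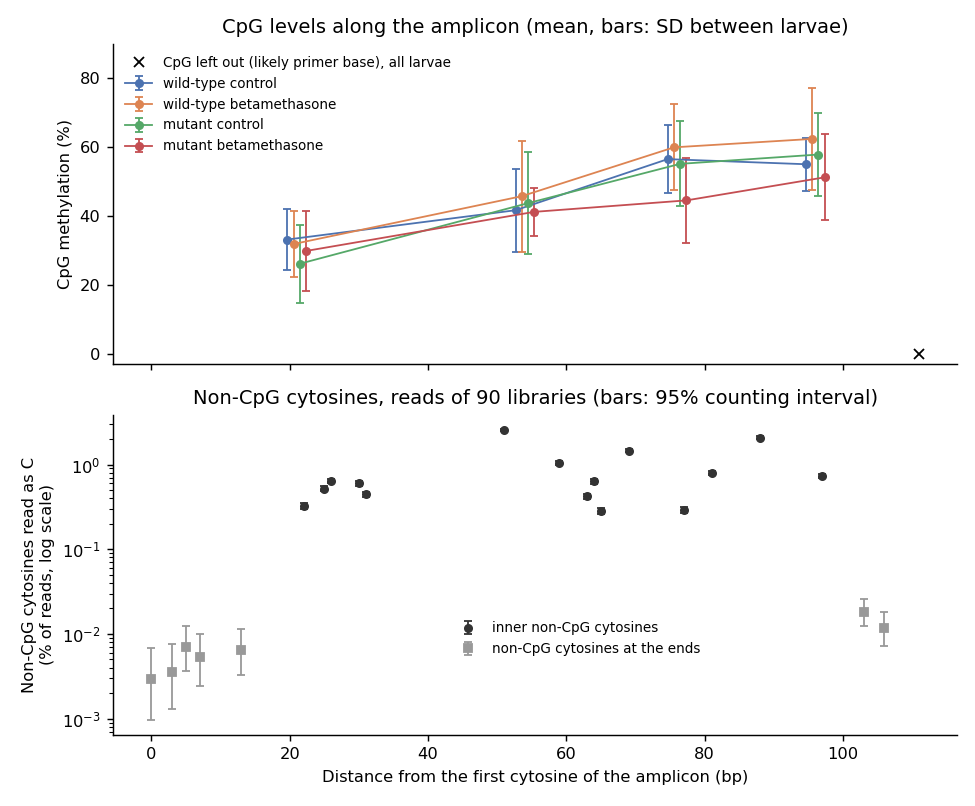
CpG methylation (percent, mean with SD between larvae, 4 groups) and the share of non-CpG cytosines read as C (percent of pooled reads, log scale, bars 95% exact counting intervals) against the distance in bp from the amplicon's first cytosine. Over all larvae the CpG mean is 30.2% at 21 bp and 56.8% at 96 bp, the CpG at 111 bp lies at 0, and the inner non-CpG cytosines stand at 0.285% or above while those at the ends stand at 0.0183% or below.

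Of the 96 libraries, 90 had at least 30 reads at all 4 CpGs: 21 control and 23 betamethasone libraries of wild-type larvae, and 24 control and 22 betamethasone libraries of mutants. The others were wild-type control libraries 9, 11 and 21, wild-type betamethasone library 2, and mutant betamethasone libraries 3 and 6, with 0 to 26 reads at +76. The median depth at +76 was 520, 2237, 1706 and 722 reads in the same order of groups, and single libraries with values ranged from 41 to 7970. Counting error at these depths amounted to an SD of 2.27 to 2.47 percentage points per CpG, against SDs between larvae of 10.6 to 13.0. No molecular identifiers are described in the labels, so this counting error and the intervals leave out any error from PCR. They also leave out the sampling of template molecules in the 100 pg of DNA amplified. The SDs between larvae include both. The same labels do not say whether libraries of a group came from separate clutches or plates, so the p-values cover no more than the spread between libraries.

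Some libraries were more alike at this amplicon than larvae of a group usually were, and the group differences that passed are given below with and without that likeness. A pair was called matching where the chi-square per CpG, averaged over the 4 CpGs, was below 4 and both libraries had 500 or more reads at every CpG. Of 467 pairs within a group, 32 matched (6.85%), against 22 of 1363 pairs between groups (1.61%). Among pairs with adjacent library numbers 12 of 45 matched (26.7%), and among the other pairs of a group 20 of 422 (4.74%). The 15 inner non-CpG cytosines played no part in this choice. By the same limit 28 of the 32 matching pairs within groups also matched at these cytosines, against 40 of the 435 pairs that did not match at the CpGs (9.20%), and 6 of the 22 matching pairs between groups did so. At the other amplicons the 32 pairs within groups matched in 32 of 139 comparisons (23.0%) and the 22 pairs between groups in 2 of 87 (2.30%). None of the 32 pairs (0) matched at every other amplicon compared.

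Wild-type control libraries 1, 13, 14 and 15 formed 1 such set. Their levels ran from 44.9% to 45.7% at +21, from 59.2% to 59.7% at +54, from 68.2% to 69.9% at +76 and from 53.0% to 54.7% at +96. They also shared a raised non-CpG cytosine +51, read as C in 4.53% to 5.54% of their reads. Wild-type betamethasone libraries 13, 14 and 24 shared the highest levels of their group at +76, 83.0% to 85.3%, with 9.68% to 10.6% at the same non-CpG cytosine. The largest set held 8 mutant control libraries, 2, 7, 8, 10, 11, 12, 22 and 24. This set had 15.2% to 25.3% at +21, 33.0% to 44.4% at +54 and 45.9% to 52.3% at +76. Its highest non-CpG cytosines on average were not raised in all 8. The one at +88 ran from 0% to 3.25% and the one at +22 from 0% to 6.97%. Only through library 22 were library 2, the pair 7 and 8, and libraries 10, 11, 12 and 24 joined. That library had 507 reads at +76, near the minimum of 500. With each of the 13 sets counted once, 67 values stood in place of 90: 15 control and 19 betamethasone values of wild-type larvae, and 14 control and 19 betamethasone values of mutants.

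A wider rule, chosen after the data were seen, asked for a match at the CpGs and at the inner non-CpG cytosines with at least 100 reads, and left 46 values: 8, 15, 15 and 8 in the same order of groups. A chi-square limit is easier to meet with few reads, and this rule lowered the minimum from 500 to 100. The 2 groups left with 8 values had the lowest median depths at +76, 520 and 722 reads against 2237 and 1706. The part of depth in these matches was not tested. By it, mutant betamethasone libraries 12 to 17, 19 and 20 formed 1 set of 8. These libraries had 25.2% to 37.3% at +76 and 38.6% to 48.02% at +21, and all 8 read the non-CpG cytosine +69 as C in 7.67% to 14.1% of reads, where the median over all 90 libraries was 0.602%. A high share at +69 was not confined to this set, as 15 of the 90 libraries were above 5%. Outside it, wild-type control 20 had 7.87%, and mutant control 18 and 19 had 7.59% and 7.26%. The 2 matching rules link libraries through chains of pairs, so the ends of a set can differ by more than the limit. Across groups, wild-type betamethasone library 11 and mutant control library 23 matched at the CpGs and at the non-CpG cytosines, with 70.3% and 72.5% at +76 and 81.1% and 81.9% at +96. For 4 libraries, control 20 and betamethasone 23 of wild-type larvae and control 23 and betamethasone 19 of mutants, the libraries most like them belonged to another group at 3 amplicons or more.

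**Figure D2:**
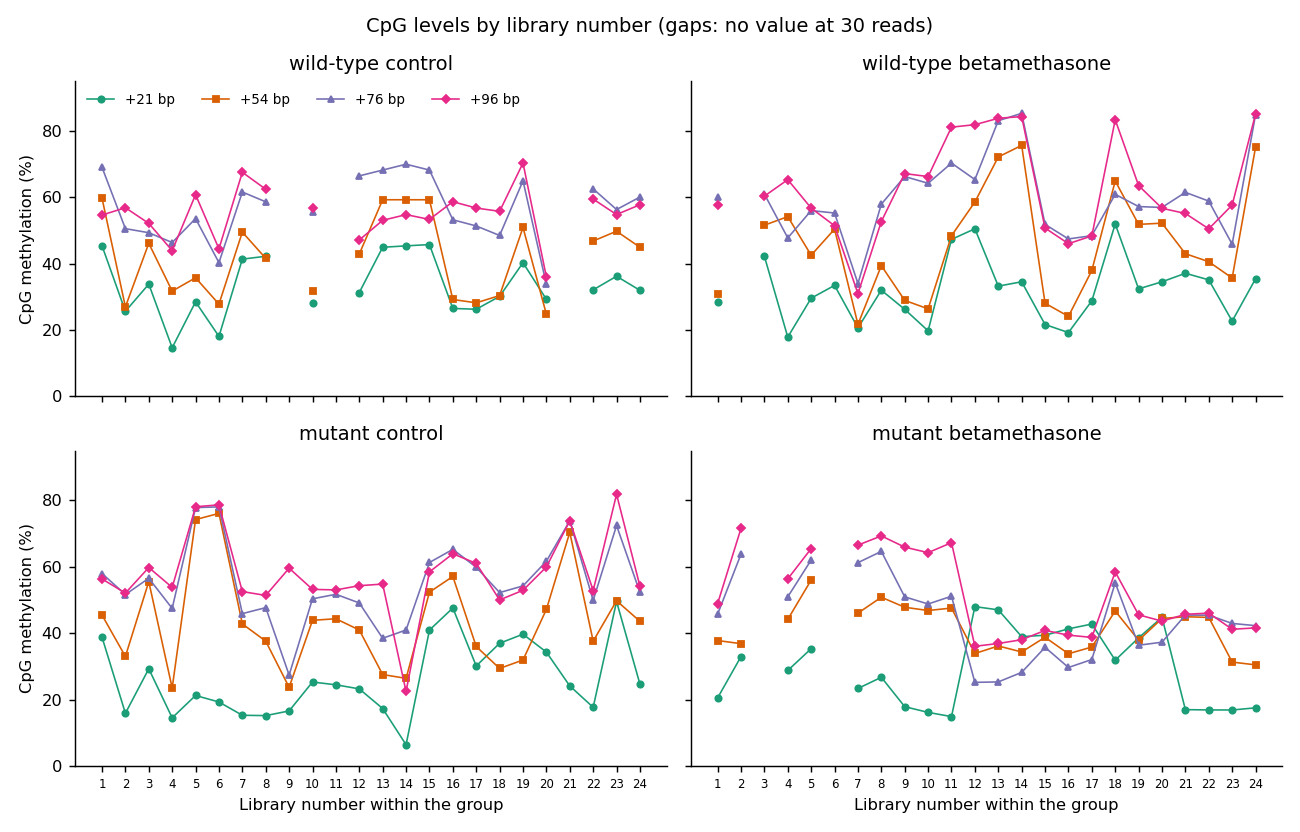
Methylation (percent) of the 4 CpGs, named by their distance in bp from the first cytosine, in each library with at least 30 reads, by library number in the 4 groups; lines join neighbouring numbers. Runs of neighbouring numbers have like levels at the 4 CpGs, as in wild-type control 13 to 15 and in mutant betamethasone 12 to 17, where the CpG at 76 bp falls below that at 21 bp.

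**Figure D3:**
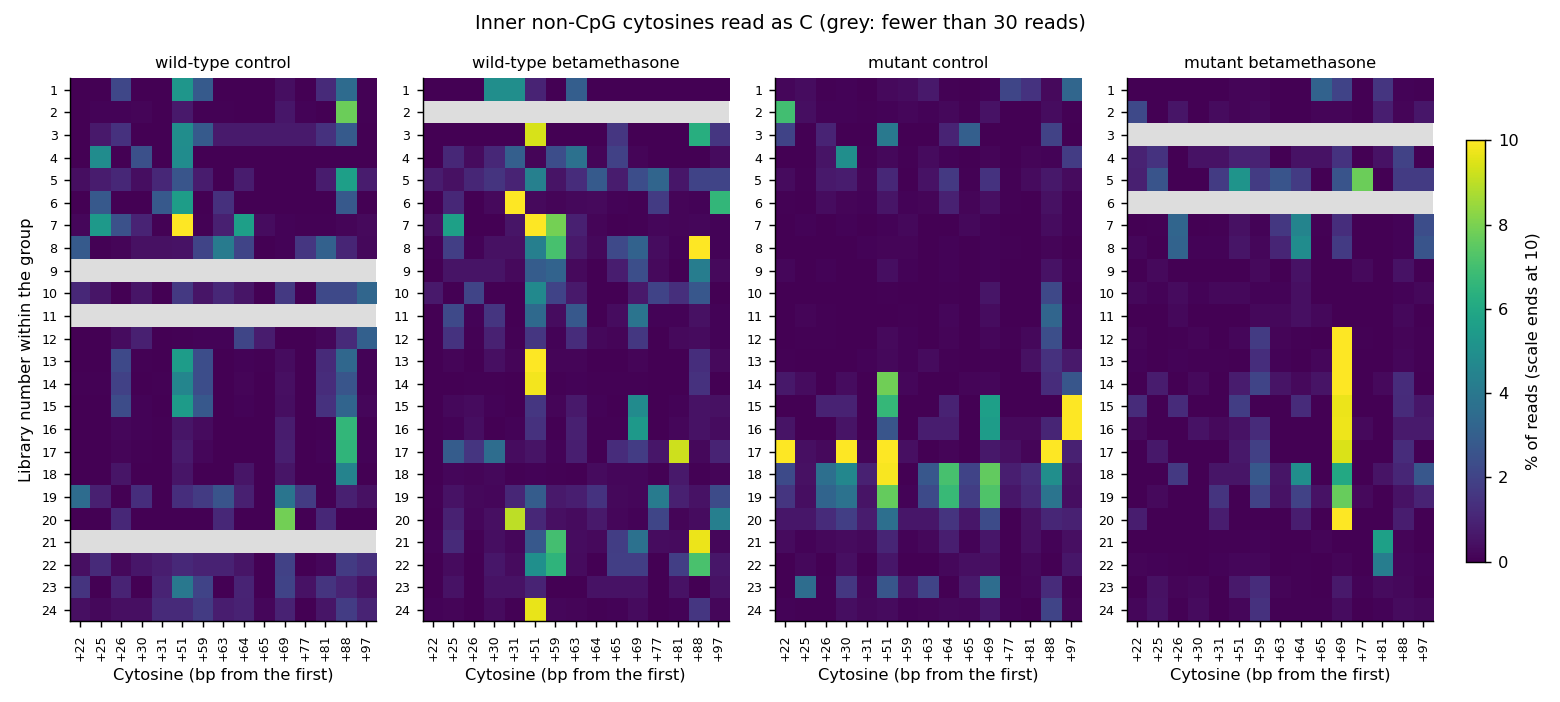
Share of reads with C (percent, colour scale ending at 10) at the 15 inner non-CpG cytosines, by distance in bp, in each library of the 4 groups; grey rows had fewer than 30 reads. Of the 32 pairs within groups that matched at the CpGs, 28 also matched at these cytosines, which does not require a raised one. The cytosine at 69 bp was raised in mutant betamethasone libraries 12 to 17, 19 and 20, and also in some libraries outside this set. Likeness at these cytosines was part of the wider rule that formed this set.

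With 46.1% ± 9.82 (SD, n = 90 larvae) over its 4 CpGs, this was the least methylated of the 8 amplicons. The next lowest, on chromosome 15, had 56.1% ± 17.6 (SD, n = 95), and the highest, on chromosome 6, had 96.4% ± 2.50 (SD, n = 76). Counting the CpG +111 as well would have given 36.9% ± 7.86 (SD, n = 90). The order of amplicons is a description and was not tested.

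Over all larvae the mean level was higher at each CpG than at the one before. It was 30.2% ± 10.6 at +21, 43.2% ± 13.0 at +54, 54.1% ± 13.0 at +76 and 56.8% ± 12.6 at +96 (SD, n = 90 each). The difference within a larva passed the test for all 6 pairs of CpGs (permutation test of paired differences, 100000 sign flips, two-sided, adjusted over 6 pairs). The first step, from +21 to +54, was 13.0 percentage points, with +54 higher in 78 of 90 larvae (adjusted permutation p = 1.2e-05, from an unadjusted 1e-05, the smallest that the permutations can give). Over all larvae the last step, from +76 to +96, was 2.64 points, with +96 higher in 60 of 90 (adjusted permutation p = 0.00293). By group this step was -1.48 ± 8.81 points in untreated wild-type (SD, n = 21, +96 higher in 12), 2.45 ± 8.04 in treated wild-type (SD, n = 23, higher in 11), 2.70 ± 8.70 in mutant control (SD, n = 24, higher in 17) and 6.70 ± 5.13 in mutant betamethasone larvae (SD, n = 22, higher in 20). The mean step thus had the opposite sign in untreated wild-type larvae, and it was not tested by group. The matching libraries 1, 13, 14 and 15 of that group entered this mean as separate values. They had 68.2% to 69.9% at +76 and 53.0% to 54.7% at +96. No step by group is given with matching libraries counted once, so the sign can rest on that set. In the 48 libraries with at least 1000 reads the step over all larvae was 1.96 points and no longer passed (adjusted permutation p = 0.148).

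The order was not the same in every larva. The 4 levels rose in order of position in 48 of 90 larvae, and +21 was the lowest in 78. The exceptions were 4 larvae with +54 lowest and 8 with +76 lowest. The latter were the 8 mutant betamethasone libraries of the set described above, which the wider rule counts as 1 value. In 6 libraries +21 was the highest of the 4, and all 6 belonged to that same set. Within a larva the highest and the lowest CpG were 28.9 points apart at the median, from 5.10 to 59.4.

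At +21, the least methylated of the 4, single larvae ranged from 14.6% to 45.7% in untreated wild-type (median 31.9%), from 17.8% to 51.9% in treated wild-type (median 32.4%), from 6.41% to 49.6% in mutant control (median 24.3%) and from 14.9% to 48.02% in mutant betamethasone larvae (median 30.3%). All groups overlapped over most of their range, with the lowest single value in mutant control. Below 20% were 9 of 24 mutant control and 7 of 22 mutant betamethasone larvae, against 2 of 21 wild-type control and 3 of 23 treated wild-type larvae. Of the mutant control larvae below 20%, libraries 2, 7, 8 and 22 belong to the matching set of 8 of that group. Of the mutant betamethasone larvae below 20%, libraries 21 and 22 are a matching pair, as are 23 and 24. The others, libraries 9, 10 and 11, belong to 1 set by the wider rule.

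At +54 the ranges were 24.7% to 59.7% (median 42.9%) in untreated wild-type, 21.7% to 75.6% (median 43.0%) in treated wild-type, 23.5% to 76.1% (median 43.2%) in mutant control and 30.5% to 56.0% (median 41.5%) in mutant betamethasone larvae. The 4 medians lay close together. Above 70% stood 3 wild-type betamethasone and 3 mutant control larvae and none of the other groups. The wild-type betamethasone ones were the matching libraries 13, 14 and 24. Of the mutant control ones, libraries 5 and 6 were a matching pair, and library 21 belonged to no set.

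At +76 the ranges were 33.7% to 69.9% (median 56.3%) in untreated wild-type, 34.0% to 85.3% (median 58.8%) in treated wild-type, 27.4% to 78.1% (median 52.3%) in mutant control and 25.2% to 64.7% (median 45.5%) in mutant betamethasone larvae. The low values of mutant betamethasone larvae came from the set of 8 matching libraries, at 31.2% ± 4.89 (SD, n = 8). The other 14 of that group lay between 42.3% and 64.7%, at 52.2% ± 7.90 (SD, n = 14), within the range of each other group. At +96 the ranges were 36.0% to 70.3% (median 55.7%), 31.0% to 85.1% (median 57.6%), 22.4% to 81.9% (median 54.6%) and 36.1% to 71.6% (median 45.9%) in the same order. Here too the mutant betamethasone median was the lowest.

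**Figure D4:**
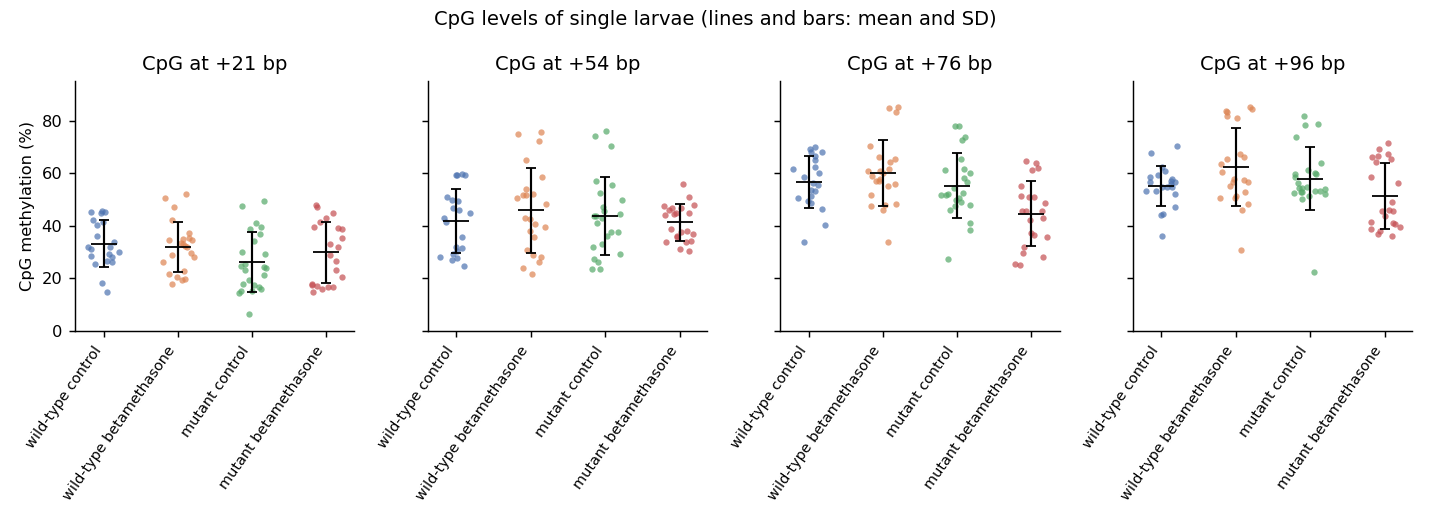
Methylation (percent) of single larvae at the 4 CpGs, named by distance in bp from the first cytosine, in the 4 groups; lines and bars are mean and SD, with 21 to 24 larvae per group. The groups overlap at every CpG, and at 76 bp the mutant betamethasone mean of 44.6% lies below the other 3 means of 55.2% to 60.0%.

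Betamethasone against control in wild-type larvae asks whether the drug shifts methylation where its receptor is intact. None of the 4 CpGs passed the test, with 22% of the 50 CpGs tested passing (beta-binomial likelihood ratio test, two-sided, adjusted over the 50 CpGs). The differences were -1.30 (SE 2.80) at +21, 4.08 (SE 4.26) at +54, 3.42 (SE 3.38) at +76 and 7.36 percentage points (SE 3.51) at +96. The last had the smallest adjusted p, 0.121, with 15 of 23 treated larvae above the control median, and was the 1 CpG with an unadjusted p below 0.05 by the beta-binomial test. Under the 12 alternatives, which include a permutation and a quasi-binomial test, 0 of the 4 CpGs passed. Over the whole amplicon the level was 50.0% ± 11.6 (SD, n = 23) under betamethasone and 46.7% ± 8.32 (SD, n = 21) in control (adjusted p = 0.321 over the 8 amplicons by the same test). Of the 8 amplicons 37.5% passed in this comparison.

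In GR mutant larvae none of the 4 CpGs passed either, with 2% of the 50 CpGs passing. The largest difference was at +76, which had 44.6% ± 12.4 (SD, n = 22) under betamethasone and 55.2% ± 12.3 (SD, n = 24) in control, a difference of -10.6 points (SE 3.64, beta-binomial adjusted p = 0.0641), with 17 of 22 treated larvae below the control median. It was the 1 CpG of the 4 with an unadjusted p below 0.05, and again 0 of the 4 passed under any of the 12 alternatives. With the set of 8 mutant betamethasone libraries alone counted as 1 value, an alternative chosen after the data were seen, the difference at +76 was -4.39 points (n = 39, beta-binomial adjusted p = 0.608). The set was formed from likeness at these same CpGs and held the low values of its group at +76. A smaller difference there can thus follow from how it was chosen. With every library kept, the other 3 CpGs differed by 3.71 (SE 3.38), -2.53 (SE 3.38) and -6.62 points (SE 3.61) at +21, +54 and +96. The amplicon level was 41.8% ± 6.52 (SD, n = 22) against 45.8% ± 10.6 (SD, n = 24) in control (beta-binomial adjusted p = 0.352). None of the 8 amplicons passed (0%).

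Mutant against wild-type larvae without the drug asks whether methylation goes with the receptor's genotype alone. Here 1 of the 4 CpGs passed, with 36% of the 50 CpGs passing. It was +21, at 33.2% ± 8.94 (SD, n = 21) in wild-type larvae and lower in mutants, 26.2% ± 11.4 (SD, n = 24). The difference was -7.02 points (SE 3.04, beta-binomial adjusted p = 0.0255), with 17 of 24 mutant larvae below the wild-type median. The difference was -3.82 points (beta-binomial adjusted p = 0.296) when each matching set counted once, and it did not pass a permutation test of equally weighted larvae either (adjusted p = 0.0707). The 12 alternatives tried for +21 all kept its sign, and 7 of them passed. The other 3 CpGs differed by 2.05 (SE 4.02), -1.37 (SE 3.31) and 2.82 points (SE 2.97) in order of position. The amplicon level was 46.7% ± 8.32 without and 45.8% ± 10.6 with the mutation (SD, n = 21 and 24, beta-binomial adjusted p = 0.694), and 37.5% of amplicons passed.

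Under betamethasone, +76 was lower in mutant than in wild-type larvae, at 44.6% ± 12.4 (SD, n = 22) against 60.0% ± 12.5 (SD, n = 23). The difference was -15.4 points (SE 3.71, beta-binomial adjusted p = 0.00156), with 18 of 22 mutant larvae below the wild-type median. It was the 1 of 4 CpGs that passed, with 10% of the 50 CpGs passing. The neighbouring +96 had 51.3% ± 12.5 against 62.4% ± 14.7 (SD, n = 22 and 23), a difference of -11.2 points (SE 4.06) that missed the threshold (beta-binomial adjusted p = 0.0531). The CpGs +21 and +54 differed by -2.02 (SE 3.17) and -4.55 points (SE 3.66) (beta-binomial adjusted p = 0.712 and 0.641).

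Over the amplicon the mutant level under betamethasone was 41.8% ± 6.52 (SD, n = 22) against 50.0% ± 11.6 for wild-type (SD, n = 23). The difference was -8.28 points (SE 2.79, beta-binomial adjusted p = 0.0189, 25% of the 8 amplicons passing). Without +96 the difference was -7.33 points (beta-binomial adjusted p = 0.0280). Matching libraries moved both results. Counted once, they left -12.1 points at +76 (adjusted p = 0.0253) and -5.59 over the amplicon (adjusted p = 0.220, both by the beta-binomial test). By the wider rule, which counted 4 sets in each of these groups once and left 8 mutant and 15 wild-type values, the differences were -7.36 points at +76 (adjusted p = 0.552) and -6.40 over the amplicon (adjusted p = 0.435). With the set of 8 mutant libraries alone counted as 1 value and every other library kept, they were -9.18 points at +76 (adjusted p = 0.116) and -6.37 over the amplicon (adjusted p = 0.228, all by the beta-binomial test). That set was formed from likeness at these same CpGs and held the low values of its group at +76. The high wild-type betamethasone set of libraries 13, 14 and 24 was not merged in this alternative. A smaller difference can thus follow from that choice. Without the 4 libraries closest to another group the values were -15.7 points at +76 (adjusted p = 0.00187) and -8.61 over the amplicon (beta-binomial adjusted p = 0.0184). The 12 alternatives tried for +76 all kept its sign, and 8 of them passed.

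The betamethasone difference was tested for being unequal in the genotypes, and 2 of the 4 CpGs passed, with 14% of the 50 CpGs passing (beta-binomial interaction of genotype and treatment on the logit scale, likelihood ratio test). At +76 the treatment difference was -10.6 points in mutant and 3.42 points in wild-type larvae, a contrast of -14.0 points (SE 4.97, adjusted p = 0.0401). At +96 it was -6.62 against 7.36 points, also a contrast of -14.0 (SE 5.04, adjusted p = 0.0401). These calls were near the threshold. With matching libraries counted once the contrasts were -13.7 and -12.7 points and neither passed (beta-binomial adjusted p = 0.147 and 0.219). With the set of 8 mutant betamethasone libraries alone counted as 1 value they were -7.81 and -8.67 points and neither passed (adjusted p = 0.332 and 0.257). That set was chosen by likeness at these same CpGs, so smaller contrasts can follow from that choice. Without the 4 libraries closest to another group the contrasts were -12.4 and -11.9 points and neither passed (adjusted p = 0.113 and 0.118). The interaction passed under 2 of 12 alternatives at +76 and 3 of 12 at +96. The contrasts at +21 and +54 were 5.00 (SE 4.39) and -6.61 points (SE 5.44), and that of the amplicon was -7.39 points (SE 3.97, beta-binomial adjusted p = 0.148, 37.5% of amplicons passing).

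How widely larvae differed was compared as well. At +54 the SD between larvae was 6.90 points in mutant betamethasone, against 12.1 in untreated wild-type, 16.1 in treated wild-type and 14.9 in mutant control larvae. At +96 it was 7.76 points in wild-type control against 12.0 to 14.7 in the other groups. Neither passed a permutation test of the mean absolute deviation from the group median over the 4 groups (100000 resamples, adjusted p = 0.107 and 0.192 over 5 tests), and neither did +21, +76 or the amplicon. With matching libraries counted once +54 passed (adjusted permutation p = 0.0236), with SDs of 6.78 points in mutant betamethasone and 10.5 to 17.0 in the other groups. The matching sets were chosen by likeness at these same CpGs, so merging them can itself change the spread. Mutant control went from 24 values to 14, and mutant betamethasone from 22 to 19.

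Among 30 correlations between CpGs across larvae (6 pairs of CpGs, in each group and over all), 27 were positive, and the others were all in mutant betamethasone larvae. After adjustment 24 passed, 2 of them negative, although matching libraries are not independent of each other. The 2 negative ones were +21 with +76 and +21 with +96 (r = -0.461, adjusted permutation p = 0.0401), both in mutant betamethasone larvae. The neighbours +21 and +54 had r = 0.264 in mutant control (n = 24, adjusted permutation p = 0.214) and r = -0.287 in mutant betamethasone larvae (n = 22, adjusted permutation p = 0.201). CpGs +76 and +96, 20 bp apart, had r = 0.838 (rho = 0.779, n = 23) in wild-type betamethasone and r = 0.915 (rho = 0.960, n = 22) in mutant betamethasone larvae, each with adjusted permutation p = 3.75e-05 for r. In wild-type control larvae the same pair had r = 0.522 (rho = 0.244, n = 21, adjusted permutation p = 0.0219 and 0.304), and without the 2 larvae farthest from the median r was 0.147, so the relation rested on those larvae. In mutant control larvae r was 0.744 (rho = 0.719, n = 24, adjusted permutation p = 0.00015 and 0.000245).

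The pair farthest apart within the first 3 CpGs, +21 and +76, had correlations of both signs across the groups. It had r = 0.768 (rho = 0.806, n = 21) in untreated wild-type, 0.474 (rho = 0.607, n = 23) in treated wild-type and 0.482 (rho = 0.653, n = 24) in mutant control larvae, with adjusted permutation p = 6.67e-05, 0.0290 and 0.0250 for r. In mutant betamethasone larvae r was -0.550 (rho = -0.548, n = 22, adjusted permutation p = 0.0137 and 0.0126), and -0.399 without the 2 larvae farthest from the median. Counting matching libraries once left it at -0.540 (n = 19, adjusted permutation p = 0.0251). By the wider rule, which counted 4 sets of this group once each, r was -0.150 and rho 0.262 (n = 8, adjusted exact permutation p = 0.771 and 0.554). With the set of 8 libraries alone counted as 1 value, r was 0.145 and rho 0.350 (n = 15, adjusted permutation p = 0.649 and 0.242). With that set counted as 1 value, r stayed negative and rho turned positive by the wider rule. Both were positive when the set alone was counted so. The set was formed from likeness at these same CpGs, so these changes can follow from how it was chosen. The difference between the groups' correlations was not tested.

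**Figure D5:**
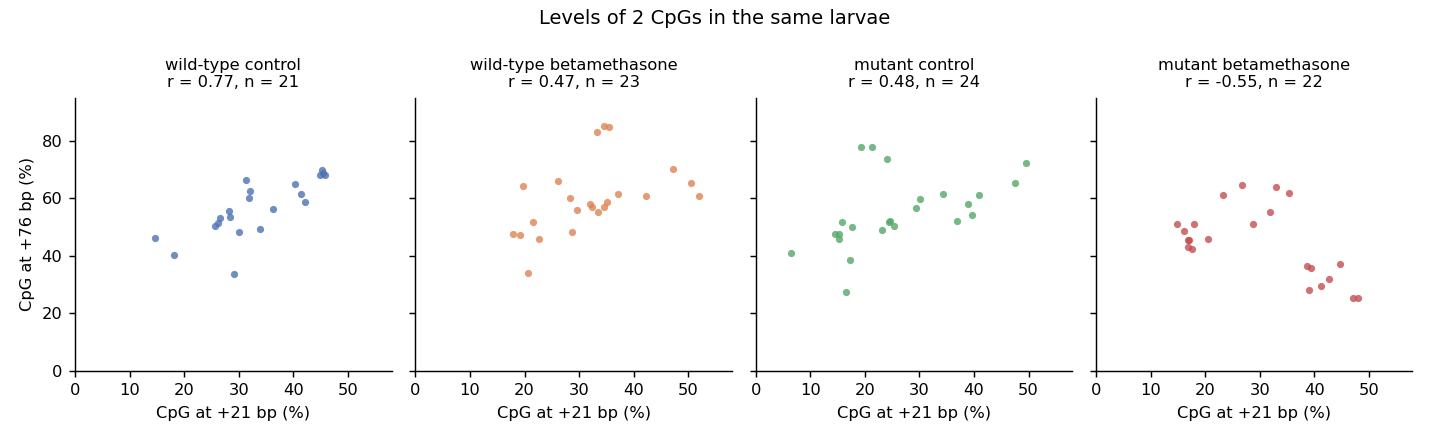
Methylation (percent) of the CpG at 76 bp against that at 21 bp in the same larvae, 1 point per larva, in the 4 groups with Pearson's r and n. The points rise in 3 groups and fall in mutant betamethasone larvae, where the lower right points are libraries of the set of 8.

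Depth and the share of non-CpG cytosines read as C were set beside these levels. Of 25 correlations of level with depth (log10 reads), 1 passed: at +76 in wild-type control larvae r was 0.669 (rho = 0.671, n = 21, adjusted permutation p = 0.0240 and 0.0280), and 0.606 without the 2 libraries farthest from the median depth. The matching libraries 1, 13, 14 and 15 of this group, with 68.2% to 69.9% at +76 and 4541 to 7970 reads, entered it as separate values. No value with matching libraries counted once is given for this correlation. The inner non-CpG cytosines were read as C in 0.936% ± 0.311 of reads in untreated wild-type, 1.15% ± 0.544 in treated wild-type, 0.996% ± 1.21 in mutant control and 0.770% ± 0.493 in mutant betamethasone libraries (SD, n = 21, 23, 24 and 22). None of the 4 pairs of groups passed a permutation test with 100000 resamples, and the nearest was mutant against wild-type under betamethasone, with -0.376 points (adjusted permutation p = 0.0824, unadjusted 0.0206). The part of depth and of incomplete conversion in the group differences was not tested beyond the alternatives given.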

How the data were processed

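DNA was bisulfite-converted, 100 pg of it was amplified for 40 cycles per amplicon, and the pooled, barcoded products were read as 150 bp paired ends, per the labels' protocols. FastQC, cutadapt and BS-Seeker2 with build GRCz10 were used, per the submitters' processing notes, and their versions and settings were not given in the sources used here. For each library and cytosine the authors deposited a methylation fraction and the count of methylated and of all reads. The deposited fraction differed from the ratio of the counts by more than rounding at 0 cytosines. The counts were used, and the highest was 8088.

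A level is methylated over all reads, per CpG and larva, with at least 30 reads. All 50 CpGs with this depth in at least 10 larvae of each group were fitted by beta-binomial regression, and p-values were adjusted by Benjamini-Hochberg over the CpGs or over the 8 amplicons, and called at 0.05. Differences, in percentage points, are those of unweighted group means, with their SE. Those by the quasi-binomial F test are instead of reads pooled over each group. Background percentages are shares of all CpGs or amplicons past that threshold. All CpGs of the amplicon are named. The fits were checked on simulated larvae drawn independently of each other, so that check does not cover matching libraries. The members, the tests and the first matching rule were chosen with earlier results of these data known. Software was scipy 1.17.1, pandas 2.3.3 and numpy 2.4.6 under Python 3.11.15, and plots were drawn with matplotlib 3.10.9. Alternatives were other read minimums, other tests, a replicate block, libraries left out, counted once or averaged in runs of 4 neighbouring numbers, and other sums over CpGs.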

Additional observations from a re-analysis of the deposited data

Results flagged for a closer look

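At 2 CpGs the betamethasone difference in GR mutant larvae was unlike that in wild-type larvae by a test of the difference itself. At +76 the contrast was -14.03 percentage points and at +96 it was -13.98 points (beta-binomial interaction, adjusted p = 0.0401 each). The same contrast ranged from -17.4 to -4.86 points over 12 alternatives at +76, with adjusted p between 0.0310 and 0.657. At +96 it ranged from -19.2 to -8.67 points, with adjusted p between 0.0118 and 0.357. Both contrasts were negative under every one of these alternatives. With matching libraries counted once the contrasts were -13.7 and -12.7 points, close to those with every library kept, on fewer values (67 in place of 90), and neither passed. With the set of 8 mutant betamethasone libraries alone counted as 1 value they were -7.81 and -8.67 points, and neither passed. That set was chosen by likeness at these same CpGs, so smaller contrasts can follow from that choice. The part of matching libraries in the contrast was not tested further.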

How the results depend on the processing

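Mutant against wild-type under betamethasone stayed negative over the whole amplicon under all 15 alternatives, from -12.1 to -5.59 percentage points, and passed in 9. The value of -12.1 came from the quasi-binomial F test. Differences by that test are of reads pooled over each group, so deeper libraries weigh more, and they are not those of group means. It missed the threshold at a minimum of 1000 reads (-9.61), with runs of 4 numbers averaged (-7.63), with matching libraries counted once (-5.59), by the wider rule (-6.40) and with the set of 8 mutant betamethasone libraries alone counted as 1 (-6.37). CpGs past the threshold in that comparison, 1 as reported, were 2 at a minimum of 10 reads, by the quasi-binomial F test and without the 18 libraries above 2% non-CpG, and 0 at 1000 reads, in runs of 4, by the wider rule and with the set of 8 alone counted as 1. For the interaction, 2 as reported, the number was 1 by the F test and 0 at 10, 100 and 1000 reads, with matching libraries counted once by either rule, with the set of 8 alone counted as 1, in runs of 4 and without the 4 libraries closest to another group. For genotype in control, 1 as reported, it was 2 by the F test and 0 by the permutation test, in runs of 4 and with matching libraries counted once by either rule. The F test also called the amplicon for genotype in control (-6.36), and the amplicon interaction passed without the libraries above 2% (-9.97). Leaving out those 18 took libraries unevenly from the groups, 10 of them from wild-type control and 1 from mutant betamethasone. Signs turned for values that did not pass: the amplicon to -0.0292 for betamethasone in wild-type at 1000 reads, and to 1.63 and 1.75 for genotype in control under the 2 matching rules. CpG +54 turned for genotype in control, to -0.737 at 100 reads, -3.89 at 1000 reads and -5.85 by the F test. CpG +76 turned to -2.87 at 1000 reads and by the F test (betamethasone in wild-type), and to 1.60 and 1.66 under the 2 matching rules (genotype in control). By the wider rule CpG +21 turned to 1.44 and -1.15 (betamethasone in wild-type and mutant) and -2.60 (interaction), and with the set of 8 alone counted as 1 to -2.23 (betamethasone in mutant) and -0.934 (interaction). The ratio of largest to smallest spread passed for +96 at 100 reads (3.30) and for +54 with matching libraries counted once (2.45). Merging libraries chosen by likeness at these CpGs can itself change the spread. The step from +76 to +96 was 1.96 points at 1000 reads and did not pass. Correlations turned in wild-type control larvae at 1000 reads (+54 with +96, r = -0.206, and +76 with +96, r = -0.412) and in mutant betamethasone larvae by the wider rule (+21 with +96, r = 0.0863) or with the set of 8 alone counted as 1 (+21 with +54, +76 and +96, r = 0.102, 0.145 and 0.0986). Beyond the matching rules, the cause of these shifts was not tested.

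No pairing of larvae by library number was seen in the levels. Same-numbered libraries of different groups had a median r of -0.00895 (-0.706 to 0.829, 141 pairs), and 5 of 95 libraries correlated best with their own number. This cannot show whether numbers followed a clutch or plate, which the labels do not give. With the number as a replicate block, in a linear model of equally weighted larvae, genotype under betamethasone over the amplicon was -8.68 points (adjusted p = 0.0617), and 0 CpGs passed for genotype in control and for the interaction. At 1000 reads only 48 libraries remained, which limits what depth can settle.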
